A study of Mus musculus with 4 samples.

Results

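Versican, the hyaluronan synthases Has1, Has2 and Has3, the link proteins Hapln1 and Hapln3, and the hyaluronidases Hyal1 and Hyal2 were followed in cultured mesenchymal cells of the mouse hair follicle. These 8 genes were taken by symbol from the 51826 rows of the deposited count table, and each symbol matched 1 row. RNA-Seq had been done on dermal papilla cells (DPCs), which form the signaling center at the base of the follicle, and on dermal sheath cells (DSCs), the connective tissue cells that wrap it. Each cell type was sequenced at passage 3 (low passage) and at passage 9 (high passage), which gave 4 libraries, 1 per group. Both cell types came from vibrissal (whisker) follicles of EGFP-transgenic C57BL/6J mice aged 5 to 6 weeks, so that every group carries the EGFP transgene. The labels give the genotype of every group as WT. The cells were grown in DMEM, and passage is the treatment that the labels list. The study asked which RNAs differ between low-passage and high-passage cells.

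Versican is a large chondroitin sulfate proteoglycan whose head binds hyaluronan, a long unbranched sugar that synthases in the plasma membrane extrude directly into the matrix. Link proteins clamp the proteoglycan to the sugar, and hyaluronidases cut the sugar into fragments. Versican is a long-known marker of the dermal papilla during the growth phase of the hair, where this swollen, hyaluronan-rich matrix surrounds the mesenchymal cells.

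The total count was between 34981284 and 47604059 per library, and 22230 to 23548 genes had a count. With 1 library per group, no difference below has a replicate check, and no p-value was computed between 2 single libraries. The p-values given further below come from an additive model over all 4 libraries. A gene was called changed at 4-fold or more, which is 2 on the log2 scale. Intervals are exact 95% counting intervals (Clopper-Pearson) for the ratio of 2 libraries. They compare those libraries, not the conditions, and cover counting error only. The labels of tissue were checked against fixed marker lists. The 7 fibroblast markers all passed the count minimum, while 5 of 7 keratinocyte markers and 4 of 6 melanocyte markers were at 0 in every library. Of the dermal papilla markers, Wif1 was at 0 in every library, and Corin and Alpl had at most 23 counts. The papilla and sheath markers did not sort the cell types as labelled. At low passage, 6 of the 9 papilla markers past the count minimum were lower in DPCs than in DSCs (median log2 ratio -1.09), and 6 of 7 sheath markers were higher (median 0.38). Sox2 and Lef1 were called higher in DPCs at low passage. At high passage, Sox2 and Enpp2 were called higher in DPCs, and Lef1, Bmp4, Ncam1 and Rspo2 lower. In bulk RNA, fewer cells of a type and less RNA per cell cannot be told apart.

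The promoters of the genes are shown first, because Vcan and Hapln1 lie next to each other on chromosome 13 and yet had unlike values, and because Has1 and Hyal1 had higher values at high passage in both cell types. RefSeq promoters (genome build GRCm38.p6) were found for 6 of the 8 genes, and none are given for Has2 and Has3. Each line holds the 250 bases before the start of the gene in RefSeq, 5′ to 3′ on the gene's strand. For Hyal1 that start lies inside the span of the count table given below, so that the last bases of its window are within that span. Capitals mark matches to 1 of 4 motifs searched on both strands, namely the TATA box (TATAAA), the GC box (GGGCGG), a TCF/LEF core (CTTTGAT) and the AP-1 site (TGANTCA). The windows are chr13:89742513-89742762 (minus strand) for Vcan, chr13:89540386-89540635 (plus strand) for Hapln1, chr17:17855189-17855438 (minus strand) for Has1 and chr9:107576700-107576949 (plus strand) for Hyal1.
Vcan: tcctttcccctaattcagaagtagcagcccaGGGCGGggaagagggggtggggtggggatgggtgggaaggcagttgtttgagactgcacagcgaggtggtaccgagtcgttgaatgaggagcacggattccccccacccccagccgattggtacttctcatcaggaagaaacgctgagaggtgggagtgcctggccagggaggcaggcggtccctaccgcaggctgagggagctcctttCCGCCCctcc
Hapln1: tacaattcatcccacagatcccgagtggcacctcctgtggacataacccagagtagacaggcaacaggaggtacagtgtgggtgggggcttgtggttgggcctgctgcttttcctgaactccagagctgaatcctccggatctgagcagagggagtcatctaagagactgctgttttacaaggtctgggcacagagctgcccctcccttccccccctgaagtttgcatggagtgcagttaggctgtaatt
Has1: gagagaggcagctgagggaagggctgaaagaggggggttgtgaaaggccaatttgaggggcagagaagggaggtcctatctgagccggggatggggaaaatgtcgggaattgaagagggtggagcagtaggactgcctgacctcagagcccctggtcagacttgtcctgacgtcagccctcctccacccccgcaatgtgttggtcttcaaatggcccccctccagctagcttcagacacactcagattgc
Hyal1: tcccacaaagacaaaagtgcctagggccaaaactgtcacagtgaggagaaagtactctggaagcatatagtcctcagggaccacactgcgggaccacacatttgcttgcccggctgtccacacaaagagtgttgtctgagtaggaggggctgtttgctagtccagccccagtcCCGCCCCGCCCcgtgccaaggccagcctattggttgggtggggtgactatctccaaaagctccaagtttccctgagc
The Vcan window had a GC content of 62.4% and held GC boxes that began 219 and 10 bases before the start. The Hyal1 window held overlapping GC boxes at 77 and 72 bases before the start. The Hapln1 window (54.4% GC) and the Has1 window (58.0% GC) held none of the 4 motifs. Neither the TCF/LEF core nor the AP-1 site was in any of the 6 windows. Among 32536 RefSeq promoters of this length, 33.0% held a GC box, 12.3% a TATA box, 6.73% the AP-1 site and 3.21% the TCF/LEF core, and the median GC content was 52.4%. A match describes the letters and does not show a bound site.

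Levels can be compared between genes only per length, and for this the deposited FPKM (a fragment count per length of transcript and per size of library) were used. Hyal2 and Vcan were the 2 highest in low-passage DPCs at 14.5 and 12.5 FPKM, in low-passage DSCs at 13.8 and 14.2 FPKM, and in high-passage DPCs at 18.1 and 8.50 FPKM. In high-passage DSCs, Hyal1 (9.67 FPKM) stood between Hyal2 (17.6 FPKM) and Vcan (6.43 FPKM). Has2 was the highest synthase in 3 of the 4 libraries and the lowest in high-passage DPCs. Hapln3 was the lowest of the 8 genes in 3 libraries, at 0.0446 to 0.0774 FPKM, and in high-passage DPCs it was listed at 0.0411 FPKM above Hapln1 at 0.0101 FPKM. Hapln1 was the gene that moved most in this order, from the lowest place in high-passage DPCs to the fifth place in high-passage DSCs at 2.04 FPKM.

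**Figure D1:**
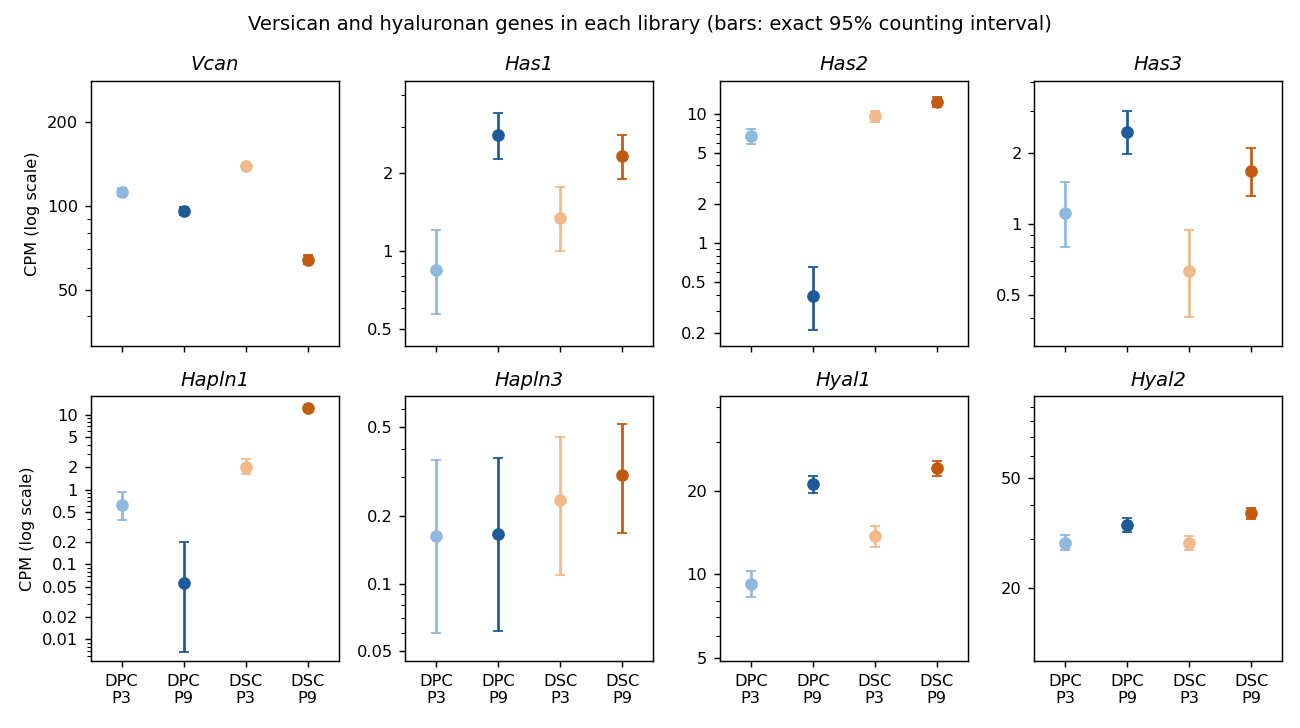
Each panel plots 1 gene, with the CPM (library-scaled counts, log scale) of the 4 libraries on the vertical axis and DPCs and DSCs at passage 3 (P3) and passage 9 (P9) along the horizontal axis. Points are single libraries and bars are exact 95% counting intervals. Has2 at 0.390 CPM and Hapln1 at 0.0557 CPM in high-passage DPCs lie below the other 3 libraries.

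Of the 8 genes, 7 reached the mean count of 10 needed for a fold change, and Hapln3 (mean count 8.75) did not. From low to high passage, 2 of the 7 fell at least 4-fold in DPCs, Has2 and Hapln1, and none rose. In DSCs, 1 of the 7 rose at least 4-fold, Hapln1, and none fell. Over all 16734 genes past the count minimum, 9.94% were called in DPCs and 3.82% in DSCs. The median log2 change over the 7 genes was 0.21 in DPCs and 0.77 in DSCs, against 0.03 and 0.00 over all these genes. Between cell types, none of the 7 was called at low passage, where 4.3% of all genes were. At high passage 2 were called, Has2 and Hapln1, both lower in DPCs, and 6.42% of all genes were called in either direction.

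**Figure D2:**
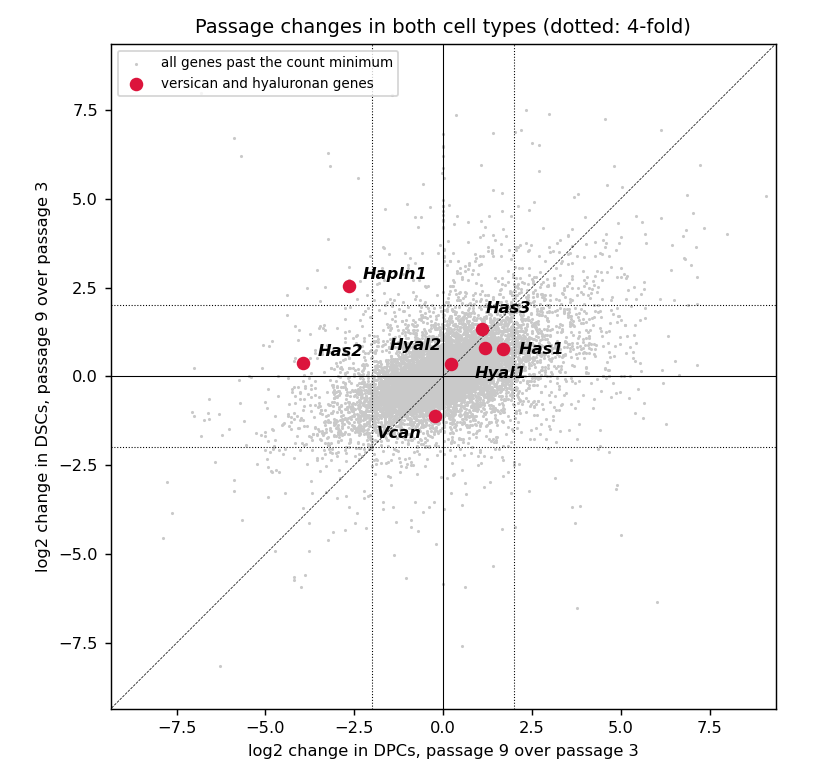
Log2 change with passage in DPCs (horizontal axis) is plotted against that in DSCs (vertical axis) for the 16734 genes past the count minimum (grey) and for the 7 versican and hyaluronan genes among them (red). Dotted lines mark 4-fold, the dashed line marks equal change. Hapln1 lies at -2.66 in DPCs and 2.55 in DSCs, and Has2 at -3.94 and 0.37.

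Of the synthases, Has2 had the largest difference. Has2 (ENSMUSG00000022367, chromosome 15, 56665627 to 56694539, minus strand) encodes the main synthase of embryonic and connective tissue. It had 247 counts at low and 14 at high passage in DPCs, and 363 at low and 566 at high passage in DSCs. High-passage DPCs were thus the only library with a low value. Has2 fell 17.2-fold with passage in DPCs (interval 10.1 to 31.9). In DSCs its log2 ratio was 0.38 (interval 0.18 to 0.57), which is under the 4-fold call. At high passage DPCs held 31.8-fold less Has2 than DSCs (interval 18.8 to 58.6), whereas at low passage the log2 ratio of DPCs to DSCs was -0.51 (interval -0.75 to -0.27). Has2os, an RNA on the opposite strand that shares 182 exonic bases with Has2, had 14, 0, 30 and 25 counts in the same order of libraries. The use of strand in counting was not given in the sources used here, so reads in the shared bases, 4.30% of the exonic length of Has2, cannot be assigned. Several lists of cell markers also had lower summed levels in high-passage than in low-passage DPCs. The endothelial, melanocyte and cartilage lists had higher ones. The 7 immune markers summed to 25.2 CPM at low and 9.95 CPM at high passage in DPCs, and to 36.9 and 16.4 CPM in DSCs. The summed level of the 7 fibroblast markers was 17300 and 6398 CPM in DPCs and 25405 and 22779 CPM in DSCs at low and high passage. In DPCs 3 of the 7 were called lower, Col1a1, Col3a1 and Lum, beside 9.94% of all genes called there in either direction. Lum had 8 and 0 counts, which is at least 2.6-fold lower against the floor and does not reach 4-fold. Another 2 of the 7 had higher values in DPCs, Pdgfra (log2 change 1.42) and Dcn (log2 change 0.39). In DSCs Dcn and Lum were called higher. The 6 Schwann cell markers summed to 13.7 and 6.35 CPM in DPCs and to 33.8 and 10.7 CPM in DSCs, with Sox10 and Ngfr at 0 in both high-passage libraries. The 7 dermal sheath markers summed to 11079 and 4253 CPM in DPCs and to 8806 and 8007 CPM in DSCs. Within that list Mylk fell in DPCs (log2 change -2.82) while Itga8 rose in both cell types (log2 change 2.38 in DPCs and 3.53 in DSCs). The papilla gene Lef1 had 508 and 2 counts in DPCs and 101 and 55 in DSCs. Of the 9 papilla markers past the count minimum, however, 5 were higher and 4 lower with passage in DPCs (median log2 change 0.27). Enpp2 was called higher there, from 25 to 207 counts, and Bmp4 and Lef1 lower. The fibroblast collagen Col3a1 had 45727 and 5565 counts in DPCs and 26269 and 41082 in DSCs. The muscle actin Acta1 had 1495 and 13 in DPCs and 1837 and 1083 in DSCs. The endothelial genes Cdh5 and Tek, at 16 and 59 counts in low-passage DPCs, were at 0 in high-passage DPCs and were called lower in DSCs too. Vwf of the same list ran the other way in DPCs, from 5 to 194 counts (log2 change 4.87), and was called lower in DSCs. The summed level of this list was 2.55 and 5.52 CPM in DPCs and 7.94 and 1.21 CPM in DSCs. The part of these genes in the Has2 and Hapln1 values of DPCs was not tested.

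Has1 and Has3 ran the other way in DPCs. Has1 (ENSMUSG00000003665, chromosome 17, 17843328 to 17855188, minus strand) encodes a synthase that is low in most resting cells. It had 31 counts at low and 100 at high passage in DPCs, and 51 at low and 106 at high passage in DSCs. Both high-passage values lay above both low-passage values. Has3 (ENSMUSG00000031910, chromosome 8, 106870242 to 106884566, plus strand), whose enzyme makes shorter chains, had 41, 88, 24 and 76 counts in the same order. The log2 ratio of high to low passage in DPCs was 1.73 for Has1 (interval 1.13 to 2.36) and 1.14 for Has3 (interval 0.59 to 1.71). In DSCs it was 0.79 for Has1 (interval 0.30 to 1.30) and 1.40 for Has3 (interval 0.72 to 2.12). None of these 4 ratios reached 4-fold, though each interval lay above 0. On deposited FPKM with a pseudocount of 0.1, the log2 change of Has3 was 1.22 in DPCs and 0.55 in DSCs. The latter is below the interval, and that pseudocount is near the FPKM of Has3 in DSCs (0.131 and 0.238). Between cell types, the Has1 values of the high-passage libraries could not be told apart (log2 ratio 0.26, interval -0.15 to 0.67), and the interval at low passage reached 0.00 after rounding. Has3 shares 352 exonic bases, 5.52% of its exonic length, with Chtf8 on the opposite strand, which had 2723 to 4477 counts, and how far reads of Chtf8 enter the Has3 counts was not tested.

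The makeup of synthase RNA therefore differed in 1 library. Has2 made up 72.8% of the summed FPKM of the 3 synthases in low-passage DPCs, and 74.2% at low and 67.9% at high passage in DSCs. In high-passage DPCs it made up 4.42%, and Has1 and Has3 made up 66.3% and 29.3%. These shares depend on the length used in the deposited FPKM, which is not known. For Has3 the FPKM did not follow the counts closely. In DSCs it had 0.131 FPKM at low and 0.238 FPKM at high passage, against 0.633 and 1.67 CPM. The sum itself was 2.0 FPKM in low-passage DPCs and 1.83 FPKM in high-passage DPCs. In DSCs it was 2.64 FPKM at low and 3.67 FPKM at high passage.

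**Figure D3:**
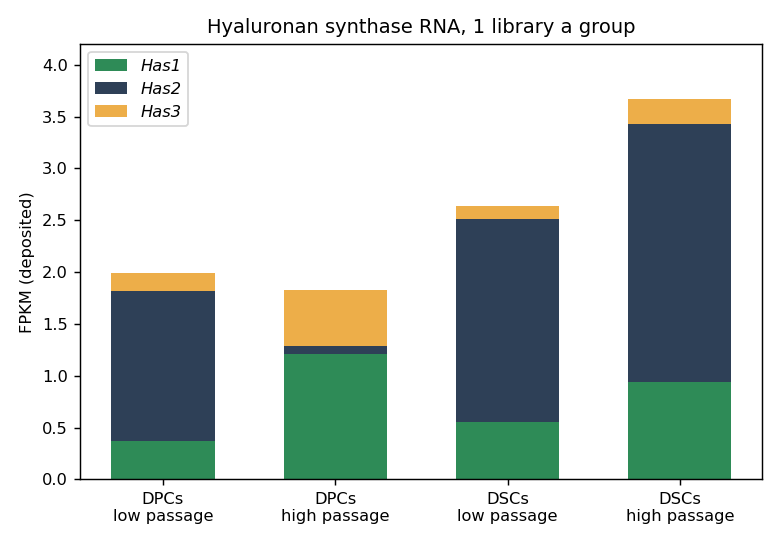
Stacked bars give the deposited FPKM of Has1, Has2 and Has3 in each of the 4 libraries, 1 library a group and without error bars. The sum is 2.0 FPKM in low-passage and 1.83 FPKM in high-passage DPCs, with Has2 at 1.45 FPKM in the former and 0.0808 FPKM in the latter.

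Vcan (ENSMUSG00000021614, chromosome 13, 89655312 to 89742509, minus strand) was the proteoglycan among the 8 genes and had the highest counts. It had 4134 counts at low and 3447 at high passage in DPCs, and 5272 at low and 2913 at high passage in DSCs. Both high-passage libraries were lower than both low-passage libraries on the CPM scale, with 112, 96.1, 139 and 63.9 CPM in the same order. The log2 ratio of high to low passage was -0.23 in DPCs (interval -0.29 to -0.16) and -1.12 in DSCs (interval -1.19 to -1.06), a 2.17-fold difference in DSCs that did not reach the 4-fold call. The order of the cell types turned over with passage. DPCs were lower than DSCs at low passage (log2 ratio -0.31, interval -0.37 to -0.25) and 1.5-fold higher at high passage (log2 ratio 0.59, interval 0.52 to 0.66). The antisense gene Gm4117, which lies within Vcan and shares none of its exonic bases, had 52 to 86 counts.

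Vcan has transcripts of very different length, since the exons that carry the chondroitin sulfate chains can be skipped. The annotation (GENCODE M21, build GRCm38) lists 9 transcripts, among them Vcan-203 of 12.4 kb, Vcan-206 of 8.33 kb, Vcan-202 of 5.70 kb and Vcan-201 of 2.32 kb. The count divided by the FPKM and by the depth gives the length that the FPKM implies, a comparison added after the values were seen. For Vcan the implied length was 9.26 kb at low and 11.7 kb at high passage in DPCs, and 9.56 kb at low and 9.51 kb at high passage in DSCs. High-passage DPCs stood above the other 3 libraries. The shift in DPCs was 0.33 on the log2 scale, and 6.54% of 12156 genes had a shift at least as large. On the FPKM scale, with a pseudocount of 0.1, the log2 change of Vcan in DPCs was accordingly -0.56 in place of -0.23. How the authors set the length in the FPKM was not given in the sources used here, and whether transcripts differ was not tested.

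Hapln1 (ENSMUSG00000021613, chromosome 13, 89540636 to 89611832, plus strand), the cartilage link protein, moved in opposite directions in the 2 cell types. It had 23 counts at low and 2 at high passage in DPCs, and 77 at low and 554 at high passage in DSCs. High-passage DSCs held by far the most and high-passage DPCs were below the floor of 3 counts. In DPCs the ratio of low to high passage was 11.2 (interval 2.77 to 98.1), and the wide interval comes from the 2 counts. On the scale with a prior count of 2, the log2 change was -2.66, and with a prior count of 10 it was -1.5, short of 4-fold. In DSCs Hapln1 rose 5.99-fold (interval 4.71 to 7.70). At high passage the ratio of DSCs to DPCs was 218 (interval 60.1 to 1810), and at low passage the log2 ratio of DPCs to DSCs was -1.70 (interval -2.44 to -1.01). Hapln1 and Vcan face each other tail to tail on opposite strands with 43659 bases between them in GENCODE M21, yet their values in DSCs ran in opposite directions with passage.

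Hapln1 is best known from cartilage, so its values are given beside the cartilage marker list. Of its 9 genes, 4 were at 0 in all libraries, and the summed level was 6.85 CPM at low and 10.9 CPM at high passage in DPCs, and 96.2 CPM at low and 114 CPM at high passage in DSCs. In DSCs most of this was Comp, a matrix protein of cartilage and tendon, with 3062 and 4613 counts, against 66 and 116 in DPCs. Col2a1, the defining collagen of cartilage, had 203 counts in low-passage DSCs, 2 in high-passage DSCs and 0 in both DPC libraries. It was thus near 0 in the library where Hapln1 was highest. Col11a2 of the same list was higher at high passage, with 83 and 294 counts in DSCs (log2 change 1.54) and 59 and 145 in DPCs. Of the 5 cartilage markers past the count minimum, 2 were higher and 3 lower with passage in DSCs. The part of other cells in the Hapln1 values was not tested.

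Hapln3 (ENSMUSG00000030606, chromosome 7, 79115102 to 79131018, minus strand), a link protein found in many tissues, had 6 counts at both passages in DPCs, and 9 at low and 14 at high passage in DSCs. No pair of neighbors in this order could be told apart, with intervals such as -1.87 to 1.94 for passage in DPCs and -0.94 to 1.76 for passage in DSCs. A difference in Hapln3 was not detectable at this depth.

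Both hyaluronidases had higher values at high passage in both cell types, without reaching 4-fold. Hyal1 (ENSMUSG00000010051, chromosome 9, 107576927 to 107581710, plus strand) encodes a lysosomal enzyme that cuts hyaluronan into small fragments. It had 341 counts at low and 756 at high passage in DPCs, and 520 at low and 1099 at high passage in DSCs. Both high-passage libraries lay above both low-passage libraries at 21.1 and 24.1 CPM against 9.27 and 13.7 CPM. The log2 ratio was 1.18 in DPCs (interval 1.00 to 1.37) and 0.81 in DSCs (interval 0.66 to 0.97). Naa80, a gene on the same strand, shares 1920 exonic bases with Hyal1, 50.8% of its exonic length, and had 464, 1603, 599 and 1145 counts in the same order of libraries. The Hyal1 values are therefore uncertain, and how far reads of Naa80 enter them was not tested.

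Hyal2 (ENSMUSG00000010047, chromosome 9, 107567945 to 107572779, plus strand), an enzyme anchored at the cell surface that cuts long hyaluronan, varied least of the 7 genes past the count minimum. It had 1073, 1213, 1106 and 1694 counts in the same order, or 29.2, 33.8, 29.2 and 37.2 CPM. The log2 ratio of high to low passage was 0.21 in DPCs (interval 0.09 to 0.33) and 0.35 in DSCs (interval 0.24 to 0.46), and the low-passage libraries could not be told apart (interval -0.12 to 0.12). The summed FPKM of Hyal1 and Hyal2 was 18.0 at low and 26.1 at high passage in DPCs, and 19.6 at low and 27.2 at high passage in DSCs. The share of Hyal1 in this sum was 19.5%, 30.6%, 29.6% and 35.5%.

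Each gene's difference between its 2 passage changes was set beside those of all genes as a description. The ratio of ratios, DPCs over DSCs on the log2 scale, was -6.07 for Hapln1 (interval -9.21 to -3.99), -4.48 for Has2 (interval -5.39 to -3.67), 0.94 for Has1 (interval 0.14 to 1.75) and 0.90 for Vcan (interval 0.80 to 0.99). It was 0.37 for Hyal1 (interval 0.13 to 0.61), and the intervals of Has3, Hapln3 and Hyal2 included 0. In absolute size on the scale with the prior count, Hapln1 stood at the percentile 99.5 and Has2 at 98.9 of all genes past the count minimum. Has1 stood at 72.3, Vcan at 72.1, Hyal1 at 39.2, Has3 at 24.9 and Hyal2 at 15.6.

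An additive model of cell type and passage gave the only test that 4 libraries allow, in which the spread is how far the responses of the cell types differ. For passage, edgeR's quasi-likelihood test with Benjamini-Hochberg adjustment called 0 of 16734 genes, with 2822 at an unadjusted p under 0.05, and DESeq2 called 955. None of the 7 genes was called by either tool. The smallest adjusted p among them was that of Hyal1 with either tool, 0.224 by edgeR and 0.105 by DESeq2, with a fitted log2 change of 1.00 and higher values in 2 of 2 cell types. For cell type, edgeR's quasi-likelihood test called 0 genes, with 1381 at an unadjusted p under 0.05, and DESeq2 called 496. DESeq2 called 1 of the 7 genes, Hapln1, with a log2 difference of 4.41 in favor of DSCs and an adjusted p of 0.0035. By edgeR its log2 difference was 4.12 and its adjusted p 0.593. Hapln1 was higher in DSCs at 2 of 2 passages, but by unlike amounts. Its log2 ratio of DPCs to DSCs was -1.70 at low and -7.77 at high passage, the latter resting on 2 counts in DPCs. The fitted difference thus describes neither passage.

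Genes with the most similar pattern over the 4 libraries were sought among 12191 genes with a mean count of at least 100, by Euclidean distance of their centered log2 CPM. For Has2 these were Eya2 (distance 0.631), Hr (0.669) and Bmp4 (0.752). Bmp4, a signal of the dermal papilla, had 2104 counts at low and 137 at high passage in DPCs, and 5931 at low and 5724 at high passage in DSCs. Hr had 297, 16, 692 and 596 counts, and Eya2 had 164, 8, 370 and 329 counts. The log2 changes of these 3 genes ran from -4.04 to -3.89 in DPCs and from -0.48 to -0.32 in DSCs, where Has2 was at 0.37. For Vcan the nearest were Card6 (0.121), Mapk12 (0.132) and Gtf2ird2 (0.143), and for Hyal1 they included Suox (0.0942) and Zfp14 (0.114). For Hapln1 the nearest genes were far, at 1.34 for Cntn2, 1.49 for Gm38182 and 1.52 for Nt5e. The 4 points of each pattern are the 4 libraries, which all of these genes share.

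The other genes of hyaluronan and versican biology were taken from fixed lists. The enzymes that supply sugar precursors differed little. None of 9 was called in either cell type, and their median log2 change was -0.32 in DPCs and -0.05 in DSCs, against 0.03 and 0.00 over all genes. Ugdh, which makes UDP-glucuronic acid, was at 73.0 and then 51.6 CPM in DPCs with rising passage, and at 111 and then 83.6 CPM in DSCs. Its log2 change was -0.50 in DPCs and -0.40 in DSCs. Gfpt2, an enzyme of the hexosamine pathway, was furthest from 0 in both, at -1.21 in DPCs and -1.13 in DSCs.

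Of 10 receptors and binding proteins of hyaluronan past the count minimum, 6 fell at least 4-fold with passage in DPCs and none rose as far, with a median log2 change of -2.33, beside the 9.94% of all genes called there in either direction. In DPCs 3 of the 10 had higher values, among them the receptor Layn with 1342 counts at low and 3612 at high passage (log2 change 1.46, interval 1.37 to 1.56). In DSCs none was called, with a median of -0.05. Stab1, a scavenger receptor, had 108 counts at low and 2 at high passage in DPCs, with 184 and 78 in DSCs. Its log2 ratio in DPCs was -5.72 (interval -8.78 to -3.83), or -4.80 with the prior count. Ptx3, which cross-links hyaluronan, had 1019, 144, 823 and 1386 counts in the same order. It fell by 2.77 in DPCs, and its log2 change in DSCs was 0.49. The other 4 that fell were Hmmr (log2 change -2.45), Tnfaip6 (log2 change -2.43), Stab2 and Itih5, and naming all 6 was decided after their values were seen. Stab2 and Itih5 were at 0 in high-passage DPCs with 7 and 10 counts at low passage, so that against the floor of 3 counts Itih5 was at least 3.25-fold lower and Stab2 at least 2.28-fold lower, bounds that do not reach 4-fold. Cd44, the main hyaluronan receptor, had 22355, 9461, 20645 and 21765 counts, with log2 changes of -1.20 in DPCs and -0.19 in DSCs. Hmmr is also a gene of dividing cells. All 10 genes of the proliferation list were lower at high passage in both cell types, 6 of them by 4-fold or more in DPCs, and the list's summed level was 840 and 213 CPM in low-passage and high-passage DPCs and 716 and 304 CPM in DSCs. The summed level of the 7 immune markers was also lower at high passage. It was 25.2 and 9.95 CPM in low-passage and high-passage DPCs, and 36.9 and 16.4 CPM in DSCs. The part of the proliferation and immune lists in the values above was not tested.

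Among 6 genes of hyaluronan breakdown past the count minimum, Cemip alone was called, and it rose in both cell types. Cemip encodes a hyaluronan-binding protein needed for depolymerization of hyaluronan in skin fibroblasts. It had 1647 counts at low and 29805 at high passage in DPCs, and 6129 at low and 47745 at high passage in DSCs. Both high-passage libraries lay above both low-passage libraries, and the log2 change was 4.21 in DPCs (interval 4.14 to 4.29) and 2.70 in DSCs (interval 2.66 to 2.74). The list's median log2 change was 0.65 in DPCs and 0.11 in DSCs.

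Acan, the cartilage relative of versican, fell in both cell types and was the only 1 of 3 measured lecticans and link proteins outside the 8 genes to be called. It had 108 counts at low and 22 at high passage in DPCs, and 1300 at low and 79 at high passage in DSCs. The log2 ratio was -2.26 in DPCs (interval -2.99 to -1.59) and -4.31 in DSCs (interval -4.65 to -3.98), or -2.17 and -4.27 with the prior count. Its direction in DSCs was opposite to that of Hapln1, the link protein that clamps it in cartilage. Hapln4, a link protein of brain matrix, was at 1.97 in DPCs and 1.31 in DSCs, just under 4-fold in the former. The list's median was 1.09 in DPCs and 0.57 in DSCs.

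Of 6 ADAMTS proteases that cleave versican, 2 fell at least 4-fold in each cell type and none rose as far, beside the 9.94% and 3.82% of all genes called, with medians of -1.27 in DPCs and -0.28 in DSCs. Adamts8 fell in both, in DPCs from 44 counts to none, which is at least 14.3-fold against the floor, and from 90 to 24 in DSCs. Adamts5 was the second in DPCs (11801 to 2257 counts, log2 change -2.35), and its log2 change in DSCs was -0.45. Adamts15 was the second in DSCs (118 to 23 counts, log2 change -2.51) and was at -1.99 in DPCs, just inside 4-fold. Adamts9 ran the other way in DPCs, with 229 counts at low and 665 at high passage (log2 change 1.57, interval 1.36 to 1.80).

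The 20 enzymes of chondroitin sulfate synthesis were spread about 0, with medians of 0.00 in DPCs and 0.27 in DSCs. Ust, a sulfotransferase that acts on uronic acid, was the only one called with passage. It rose in DPCs from 1107 to 6403 counts (log2 change 2.57), and had 976 and 2451 counts in DSCs (log2 change 1.06). Of 6 matrix partners of versican, Tnr (tenascin-R) rose in both, from 2 to 111 counts in DPCs (interval 3.94 to 8.89 on the log2 scale) and from 27 to 240 in DSCs (log2 change 2.80). Fbn1 (fibrillin-1) fell by 2.25 in DPCs and was at -0.75 in DSCs. The summed level of these 6 partners was 13920 and 5020 CPM in low-passage and high-passage DPCs, and 23736 and 20815 CPM in DSCs, of which Fn1 (fibronectin) made up 9317 and 2358 CPM in DPCs and 19124 and 16785 CPM in DSCs.

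**Figure D4:**
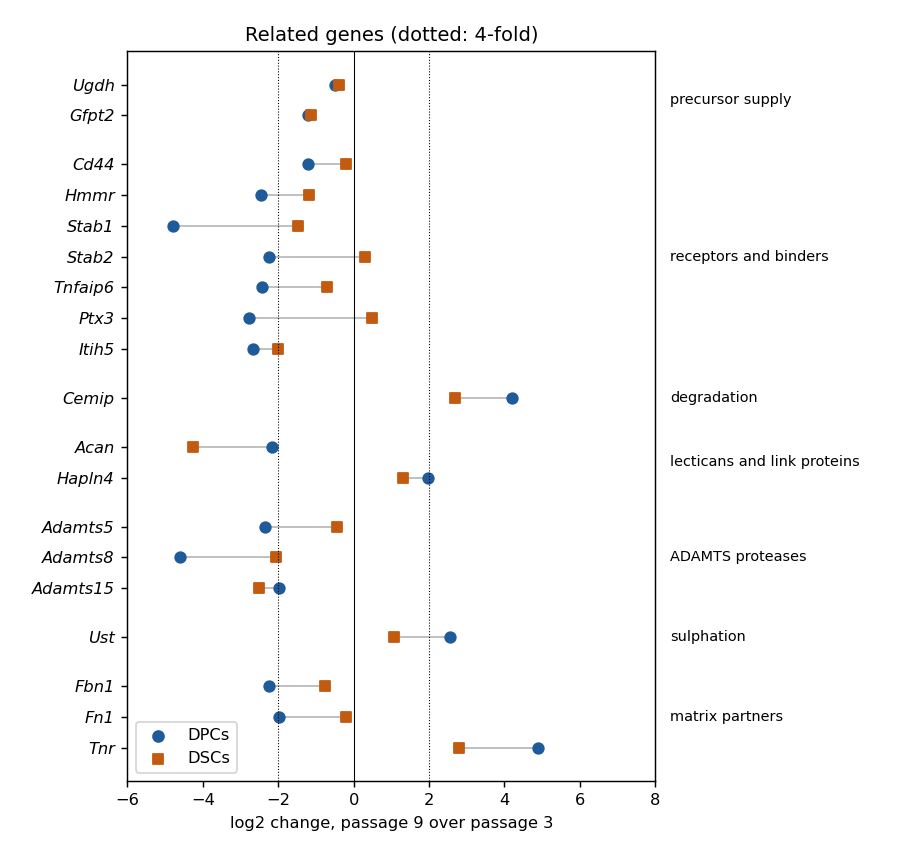
Log2 change from passage 3 to passage 9 (horizontal axis) is plotted for related genes grouped by role, with circles for DPCs and squares for DSCs, 1 library a group. Dotted lines mark 4-fold. Cemip lies at 4.21 in DPCs and 2.70 in DSCs, and Acan at -2.17 and -4.27.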

How the data were processed

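RNA of 4 groups, DPCs and DSCs at low and high passage, was sequenced as 1 library each. The authors deposited raw counts per gene for all libraries, which are whole numbers, and FPKM per gene in a table for each library, which the authors normalized for length and depth. The submitters' processing notes name Bowtie 0.12.2 and the builds mm8 and mm9 without a role, while the deposited positions are those of GRCm38. The counting program, its version, its use of strand and the length behind the FPKM were not given in the sources used here. The labels name a TruSeq kit and the study's methods another kit.

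R 4.3.3 was used with limma 3.58.1 and edgeR 4.0.16, whose TMM factors scaled the counts. A mean count of at least 10 was required, and a fold change is the difference of 2 log2 CPM values after adding a prior count of 2, except where a ratio with an interval is given, which has no prior count. The floor of 3 counts was 0.0658 to 0.0836 CPM. The additive model was run in edgeR (quasi-likelihood test) and in DESeq2 1.42.0. The edgeR fit and the fold changes, but not DESeq2, were run on simulated data. The simulated counts had a lower dispersion (spread beyond counting error) than the 0.106 of the real fit. They had no cell type differences and the same passage changes in both cell types. The simulation therefore cannot show how the fit behaves for genes such as Has2 and Hapln1, whose changes differed between the cell types. Because an excess of even counts points to both mates of a pair being counted, intervals were also computed with halved counts. Genes named outside the 8 are mainly those called in both cell types in the same direction, the largest change of each list of related genes in each cell type, and Cd44, Acan, Cemip, Ugdh and Has2os. Of the marker lists, not every gene that the rule admits is named. Other genes named from the lists were chosen after their values were seen. The 8 genes and all lists were chosen with earlier results of these data known. Where nothing says that groups came from separate cultures, differences may be technical. A gene with a pattern like that of Hyal1 is not reported here.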

Additional observations from a re-analysis of the deposited data

Results flagged for a closer look

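In 3 genes, 1 comparison ran in opposite directions in 2 groups of libraries, each beyond counting error. With 1 library a group, these differences were not tested against replicate spread, and no explanation was tested. Hapln1 was lower at high passage in DPCs and higher in DSCs, with a log2 ratio of ratios of -6.07 (interval -9.21 to -3.99), and 1 side of it rests on 2 counts. Has2 was lower at high passage in DPCs, while its log2 ratio in DSCs was 0.38, and the ratio of ratios was -4.48 (interval -5.39 to -3.67). Vcan was lower in DPCs than in DSCs at low passage and higher at high passage, with a ratio of ratios of 0.90 (interval 0.80 to 0.99). In absolute size that difference of Vcan stood only at the percentile 72.1 of all genes past the count minimum.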

How the results depend on the processing

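For the passage change in DPCs, 2 of the 7 genes were called, against 1 with a prior count of 10, 1 on FPKM with a pseudocount of 0.1, 0 on FPKM with a pseudocount of 1 and 5 at a 2-fold threshold. In DSCs the count of 1 became 0 on FPKM with a pseudocount of 1 and 3 at 2-fold. Between cell types at low passage it was 0, and 1 at 2-fold. At high passage the count of 2 became 0 on FPKM with a pseudocount of 1. A pseudocount of 1 is large beside FPKM below 3, which shrinks the changes of Has2 and Hapln1. In the fit of cell type, the count of 0 became 1 with DESeq2. Over all genes, the cell type fit called 0, against 5 with DESeq2 size factors, 13 at a mean count of at least 100 and 496 with DESeq2, and the passage fit called 0 against 955 with DESeq2. Over single genes, 199 of 224 alternative values moved by less than the counting interval and 25 moved further, and the 9 changes of sign were all of values near 0 in Hapln3 and Hyal2. Of 32 intervals, 26 excluded 0, and with halved counts 22 did. The 4 that no longer did were Has1 and Has3 between cell types at low passage, and Has3 and Hyal2 between cell types at high passage. No paired analysis was possible because each group is 1 library and carries no replicate number. No replicate could be left out for the same reason. Depth limits Hapln3 and, in high-passage DPCs, Hapln1 and Has2.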
